A study of Mus musculus with 4 samples.

Results

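The cytosolic ribosomal protein genes were taken as the protein-coding genes whose symbol begins with Rpl, Rps or Rplp followed by a digit, plus Rpsa, after removal of the Rps6k kinases, of names that end in -ps and of Gm genes. This gave 86 of the 50600 genes counted. Of these, 77 encode canonical ribosomal proteins, 46 of the large subunit (3 of them the P-stalk) and 31 of the small subunit, and 8 are paralogues of canonical genes. The last gene, Rps19bp1, encodes a protein that binds Rps19 and was matched by its name only. Fau, which encodes a ribosomal protein fused to a ubiquitin-like sequence, and Rack1, a ribosome-bound scaffold, fall outside the symbol rule and are given separately.

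RNA came from primary mouse T-helper 17 (Th17) cells of strain C57BL/6NJ, CD4 T cells known for making interleukin-17, in 4 RNA-seq libraries numbered as biological replicates 1 to 4. All 4 belong to 1 group with no second condition, so genes were compared within libraries and libraries with each other. The labels place the cells in a CD4 T-cell differentiation protocol and give neither an agent, a time nor an age, while output names in the file headers carry a tag of 16 hr that the labels do not explain. They describe the assay as total RNA-seq, while the linked library protocol is named for polyA+ RNA, and give each library its own biosample but the same donor identifier.

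A ribosome has a large subunit, where peptide bonds are made, and a small subunit, which decodes the mRNA, and nearly every protein of either is present in a single copy per particle. The P-stalk, the exception, is an arm of the large subunit that recruits elongation factors and holds several copies of its acidic proteins. Mammalian ribosomal protein mRNAs typically begin with a 5′ terminal oligopyrimidine (TOP) tract, through which mTOR signalling and the RNA-binding protein Larp1 control their translation. Activated T cells raise ribosome production as they grow and divide.

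Libraries held 24696730 to 37025016 fragments, of which 1624805 to 2391724 lay in these 86 genes. Replicates 1 and 2 had Xist at 186 and 161 TPM (a length-corrected level, defined below) and the Y-linked Ddx3y at 0.442 and 0.446 TPM. Replicates 3 and 4 had Xist at 0.687 and 0.721 TPM and Ddx3y at 88.6 and 83.2 TPM. The labels give the same donor identifier to both of these pairs. Chi-square over degrees of freedom across all genes was 3.41 and 3.66 within these pairs and 6.39 to 7.95 between them, more than sampling noise in each case, and every library entered as its own sample. High Xist is known from female cells and Ddx3y from male cells, while the labels do not state separate animals or cultures. The SDs and the variability test below take all 4 libraries together across this split. Xist and Ddx3y were among the genes that test called. The spread between libraries may also be partly technical. The T-cell genes Cd3e and Cd4 were at 127 and 237 TPM. Il17f was at 694 TPM, while Il17a was at 20.02, Ccr6 at 14.3 and Il23r at 2.14 TPM. The variability test also called Il17f (edgeR, adjusted p = 0.00785), at 703, 724, 589 and 759 TPM in replicates 1 to 4. Of 7 markers of other cells, 4 had no fragment (Lyz2, C1qa, Ncr1 and Hba-a1), and the highest, Cd79a, was at 0.343 TPM.

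TPM was computed as the fragment count over the summed exon length of the gene, with every library then brought to an equal sum. On this scale the 86 genes held 13.8%, 14.2%, 13.8% and 14.1% of all TPM in replicates 1 to 4, a mean of 14.0% ± 0.18 (SD, n = 4, as for all values with ± below). Their share of fragments was 6.46% ± 0.10, a scale that does not divide by length. The large subunit held 8.04% ± 0.14 of TPM, the small subunit 5.78% ± 0.05 and the 8 paralogues 0.156% ± 0.002. The 78 genes of mitochondrial ribosomal proteins, which form the separate ribosome of that organelle, held 0.815% ± 0.01.

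At least 1 TPM in every library was reached by 83 of the 86 genes, against 44.8% of all protein-coding genes in the annotation. At least 100 TPM was reached by 81, against 8.72% of protein-coding genes. At least 1000 TPM was reached by 46, all canonical, against 0.542%, and these made up 46 of the 120 genes of any class at that level. The median level was 1352 ± 26.9 TPM over the 77 canonical genes and 84.9 ± 5.18 TPM over the 8 paralogues. It was 91.6 ± 2.27 TPM over mitochondrial ribosomal protein genes and 31.2 ± 0.283 TPM over protein-coding genes that reached 1 TPM in every library.

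**Figure D1:**
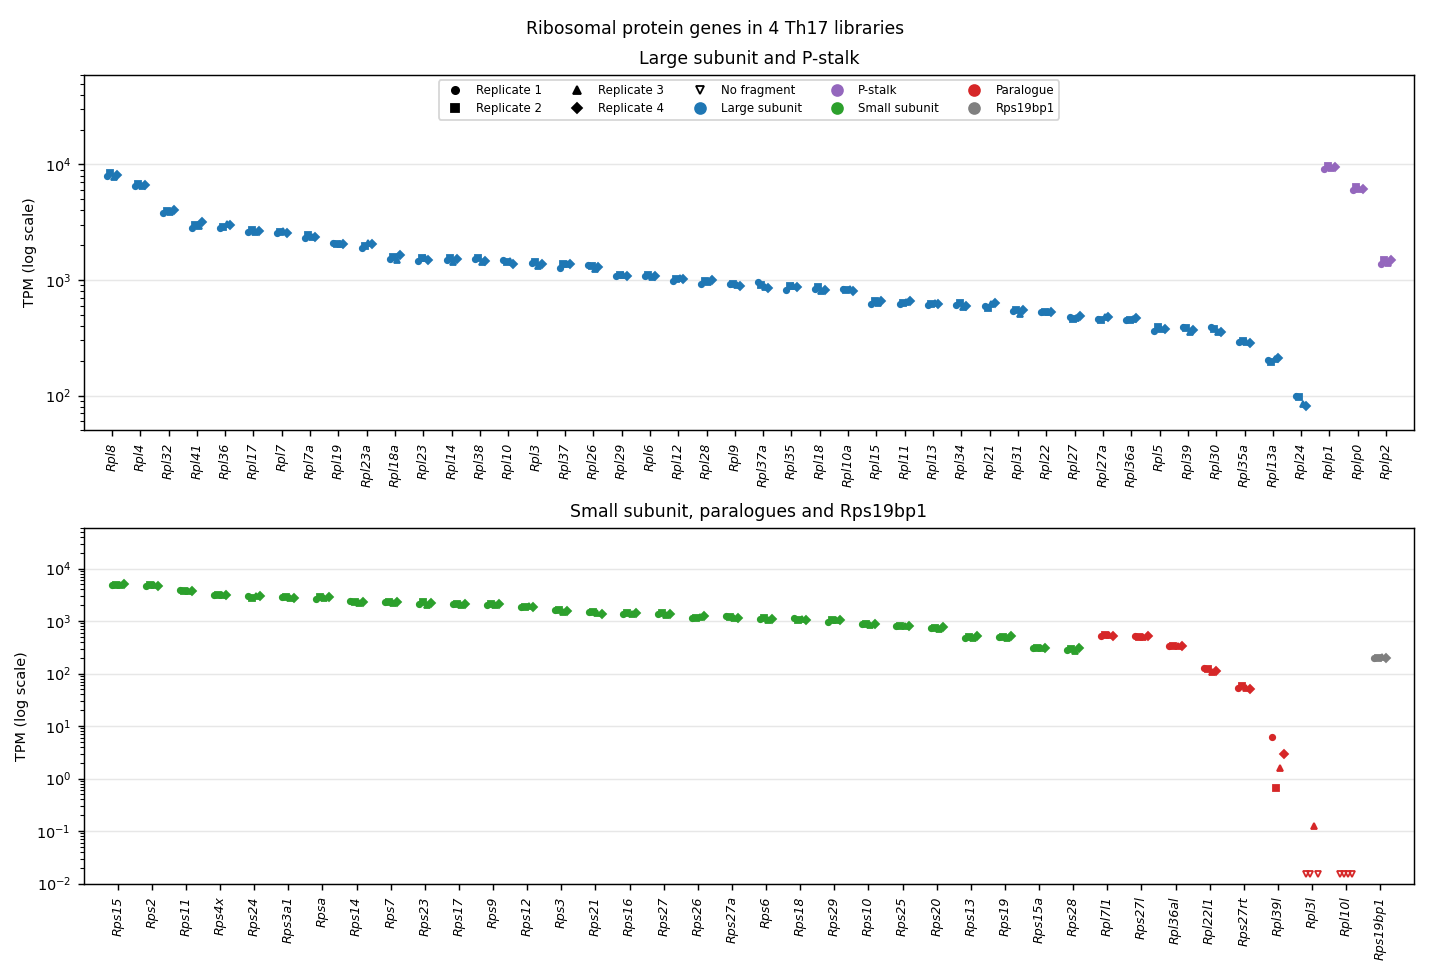
TPM (log scale) of 84 of the 86 genes in each library, large subunit and P-stalk above, small subunit, paralogues and Rps19bp1 below, each ordered by mean. Every canonical gene shown lies above 80 TPM in every library, and open triangles at the bottom mark Rpl3l and Rpl10l in libraries with no fragment.

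The P-stalk genes included the most abundant member. Rplp1, which encodes an acidic stalk protein, was at 9072, 9706, 9308 and 9423 TPM in replicates 1 to 4. Rplp0, the protein that anchors the stalk, was at 6041, 6425, 6102 and 6192 TPM, and Rplp2, the other acidic protein, at 1387, 1503, 1417 and 1490 TPM. All 3 were highest in replicate 2 and lowest in replicate 1, and the levels of the 3 genes did not overlap. The Rplp1 and Rplp2 proteins are known to pair in the stalk.

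Among other large subunit genes, Rpl8 and Rpl4 led. Rpl8, of the subunit's core, was at 7977, 8407, 7799 and 8029 TPM, and Rpl4, whose protein lines part of the peptide exit tunnel, at 6479, 6724, 6448 and 6583 TPM. In every library Rplp1 stood above Rpl8, Rpl8 above Rpl4 and Rpl4 above Rplp0. By principal transcript length this order turned in part, with Rpl4 at 5586 ± 106 TPM, Rpl8 at 5324 ± 169 and Rps2 at 5639 ± 173 TPM. Without the P-stalk, the median of the 43 large subunit genes was 971 ± 21.9 TPM. Rpl5 and Rpl11, which with 5S rRNA form a particle known to bind Mdm2 when ribosome assembly is disturbed, were below that median at 377 ± 11.9 and 639 ± 12.8 TPM.

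Small subunit genes had a higher median, 1575 ± 49.2 TPM, against 1049 ± 17.2 TPM for the large subunit with its stalk. Their medians were 1595, 1628, 1512 and 1566 TPM in replicates 1 to 4, against 1025, 1065, 1051 and 1056 TPM, so the medians did not overlap. Single genes did, with means of 287 to 4931 TPM in the small subunit and 90.2 to 9377 TPM in the large. Rps15 led at 4931 ± 96.9 TPM, followed by Rps2 at 4711 ± 143 TPM, and Rps28 was lowest at 287 ± 11.5 TPM. By principal transcript length both ends differed, with Rps2 first, Rps12 at 4997 TPM and Rps15 at 4055 TPM, and with Rps15a lowest at 245 TPM and Rps28 at 719 TPM. Rps27a, whose protein is made as a fusion to ubiquitin, was at 1177 ± 44.0 TPM. Fau was at 1707 TPM.

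Measured levels ranged widely also without the P-stalk. Among the other 74 canonical genes the highest, Rpl8, was 89.3 times the lowest, and the 90th percentile 7.40 times the 10th. The range depended on the length used. With the principal annotated transcript in place of the summed exons, the first ratio was 62.9 and the second 5.45. Per unshared word (bases with no copy elsewhere, described below) they were 876 and 12.9, where all fragments of a gene are divided by what may be a small part of its length. Over the 77 canonical genes with the stalk, Spearman's rho between levels by summed exons and by principal transcript was 0.71, a description across genes that share libraries and counts.

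The genes whose rank moved most between these lengths were Rps24, Rps23, Rpl18 and Rpl22. Rps24 was at 2926 TPM by summed exons and 995 TPM by its principal transcript, and Rps23 at 2188 and 1152 TPM. Rpl18 was at 833 and 3239 TPM and Rpl22 at 530 and 2124 TPM. Rpl18 has 4043 exon bases in all and a principal transcript of 679 bases, while the listed exons of Rps24 sum to 840 bases, fewer than the 1613 of its principal transcript in the later annotation release. Gene counts do not show which transcript was present.

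The lowest canonical gene was Rpl24 (ENSMUSG00000098274.7, chr16:55966275-55971435, plus strand, mm10), a large subunit protein gene known from the mouse Belly spot and tail mutant. It was at 98.6, 97.2, 84.0 and 81.0 TPM in replicates 1 to 4. Of its exon bases, 47.0% also lie in exons of another gene on the same strand, Gm28037. A counter run with its default settings leaves out fragments that touch both. The setting used was not given, and its part in the level of Rpl24 was not tested. Rpl13a, the second lowest at 204 ± 7.21 TPM, had 35.4% of its exon bases inside Gm45713, Mir5121 and Snord33. These were the only 2 of the 86 genes with 20% or more of their exon bases so shared (2.33%, against 1.67% of the 9761 protein-coding genes at 1 TPM). Without them and the P-stalk, the highest canonical gene was 28.03 times the lowest, Rps28.

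Ribosomal protein mRNAs have given rise to many processed pseudogenes, copies of spliced mRNA inserted elsewhere in the genome. To see how much of each gene has a copy, its principal transcript was divided into all overlapping words of 50 bases, which were sought in annotated transcripts at other loci. The median gene had 51.1% of its words elsewhere, against 0% for mitochondrial ribosomal protein genes and 0% for expressed protein-coding genes. At least 50% of words were found elsewhere in 44 genes (51.2%), against 1 mitochondrial ribosomal protein gene and 2.33% of expressed protein-coding genes. Most shared were Rps27 (98.6%), Rpl9 (93.3%), Rpl10 (92.1%), Rps27rt (91.1%), Rps12 (90.1%) and Rpl10a (88.1%). Rps19bp1, Rpl3l and Rpl39l had no shared word.

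Copies outside the 86 genes, counted as pseudogenes or Gm genes with at least 50 shared words, numbered 594, and 79 of the 86 genes had some. The median was 4 copies, and the most were 54 for Rpl21, 52 for Rpl7a and 46 for Rps2. Of the 524 copies present in the count files, 35 had no fragment and 27 had at least 1000 over the 4 libraries. Together they held 0.931%, 0.959%, 0.979% and 0.959% as many fragments as the 86 genes in replicates 1 to 4. The highest count was that of Rpl14-ps1, a processed pseudogene of Rpl14, with 7120 fragments and 240, 266, 304 and 312 TPM. It was followed by Gm15500 (a copy of Rpl5), Gm14303 (of Rps29) and Rpl37rt (of Rpl37), with 3724, 2814 and 2654 fragments. Copies of Rpl24 held 35.2% as many fragments as Rpl24 itself, the highest share of any member.

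Median levels were similar across genes with little and with much shared sequence. The 20 canonical genes with over 75% of words shared had a median of 1370 TPM, the 47 genes between 25% and 75% had 1300 TPM and the 10 genes under 25% had 1154 TPM. The highest gene of each set was at 4711, 9377 and 8053 TPM, in that order. Spearman's rho between shared words and TPM was -0.05 over the 77 genes, or 0.14 with TPM by principal length, again only a description. Fragments lost to several matching loci could not be counted here, since the files hold 1 number per gene. The 50-base words are also shorter than a read pair, so shared words do not give the share of fragments lost.

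**Figure D2:**
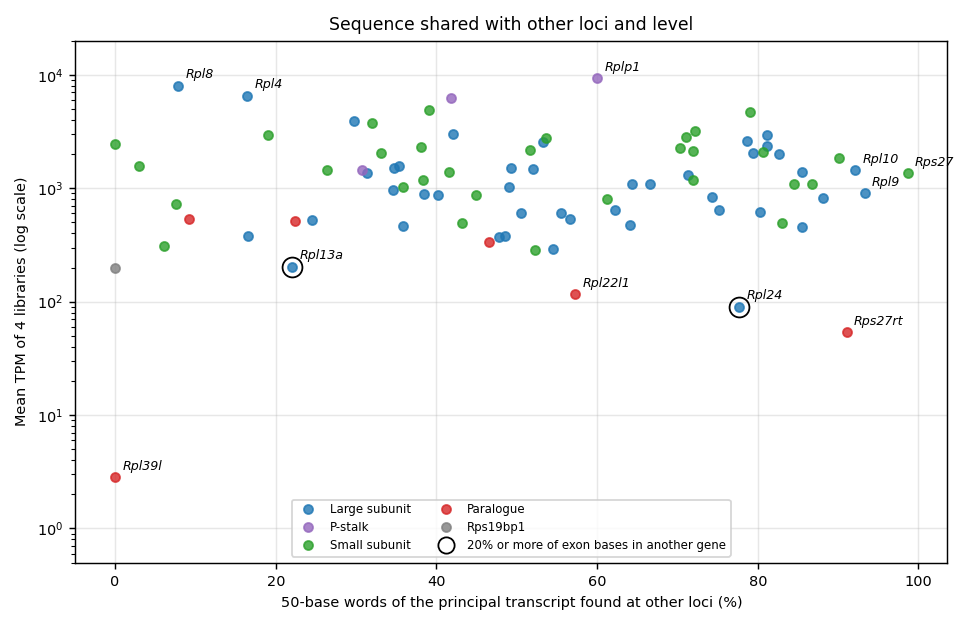
Mean TPM over 4 libraries (log scale) against the percent of 50-base words of each gene's principal transcript that occur at other loci, for the 84 genes at a mean of 1 TPM or more. High and low levels occur along the whole axis (Spearman's rho -0.05 over the 77 canonical genes), and the circled genes, Rpl24 and Rpl13a, share 20% or more of their exon bases with another gene.

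The 8 paralogues were each lower than their canonical gene in all 4 libraries. Differences are log2(TPM + 1) of the paralogue minus the canonical gene. An exact sign-flip test (two-sided, n = 4 libraries) gave p = 0.125 for each pair, also after Benjamini-Hochberg adjustment over the 8 pairs. That is the smallest p that 4 libraries can give, so no pair could pass 0.05.

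Rpl3l, Rpl10l and Rpl39l were the lowest. Rpl3l, known as the striated muscle form of Rpl3, had 2 fragments in all, both in replicate 3, while Rpl3 was at 1397, 1425, 1335 and 1369 TPM in replicates 1 to 4. Pooled over libraries, Rpl3l was 43948-fold lower per base of exon (95% exact interval 12166 to 362891, counting error only). Rpl10l, an autosomal retrocopy of the X-linked Rpl10 that is known to act in the testis, had no fragment, while Rpl10 was at 1495, 1425, 1449 and 1389 TPM. With a floor of 3 fragments in the shallowest library, Rpl10l was at least 3561-fold lower. Rps2 and Rpl3l are neighbours on chromosome 17, 5891 bases apart on the same strand, with mean levels of 4711 and 0.0315 TPM.

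Rpl39l, also known from testis, differs in coding sequence from the X-linked Rpl39 at 23 of 153 bases. The coding sequences, from GENCODE M21 transcripts, show how the genes can be told apart by their reads, with capitals for the bases in which Rpl39l differs from Rpl39.
Rpl39 (chrX:37082520-37085402, minus strand, mm10): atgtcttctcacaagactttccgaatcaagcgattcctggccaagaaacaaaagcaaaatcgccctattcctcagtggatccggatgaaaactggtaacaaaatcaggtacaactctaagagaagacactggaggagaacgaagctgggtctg
Rpl39l (chr16:10170226-10174911, plus strand, mm10): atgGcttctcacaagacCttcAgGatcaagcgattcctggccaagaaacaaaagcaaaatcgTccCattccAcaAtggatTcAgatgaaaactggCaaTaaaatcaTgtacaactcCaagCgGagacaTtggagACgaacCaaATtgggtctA

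Rpl39l was at 6.08, 0.657, 1.62 and 2.98 TPM in replicates 1 to 4, while Rpl39 was at 391, 387, 353 and 370 TPM. The counts of Rpl39l were 55, 4, 13 and 27 fragments, so replicate 1 was highest and replicate 2, the shallowest library, lowest. The difference was -6.82 ± 0.88. Rpl39l did not pass the filter on low counts of the variability test described below.

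The other 5 paralogues were expressed at over 50 TPM in every library. Rpl7l1, whose protein is known as an assembly factor of the large subunit, was at 533 ± 5.02 TPM and Rpl7 at 2583 ± 40.2 TPM, a difference of -2.27 ± 0.01. By principal transcript length its share of Rpl7 was 8.94%, against 20.7% by summed exons. Their coding sequences were 54.4% identical when aligned, the lowest of the pairs. Rpl22l1 was at 125, 120, 105 and 113 TPM, while Rpl22 was at 530, 531, 528 and 531 TPM, a difference of -2.19 ± 0.11. Its share of Rpl22 was 21.9% by summed exons and 12.8% by principal transcript length. Rpl22 protein is known to bind and repress the Rpl22l1 transcript. Rpl22l1 was higher in replicates 1 and 2 than in replicates 3 and 4, the libraries that also differ in Xist, and Rpl22 was nearly constant.

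Rpl36al was the paralogue closest to its canonical gene by summed exons and by principal transcript length, but not per unshared word, where its difference was -2.75 and that of Rpl22l1 was -2.17. It was at 338, 336, 335 and 336 TPM, against 448, 451, 461 and 472 TPM for the X-linked Rpl36a, which is 73.4% ± 1.92 of its level. By principal transcript length it was 55.1% ± 1.44. The difference of -0.45 ± 0.04 was small, but the genes did not overlap in any library. Rpl36al lies 23545 bases from Rps29 on chromosome 12 and was 87.7% identical to Rpl36a in coding sequence.

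Rps27 has a pair of paralogues in these data. Rps27l, a known p53 target, was at 514 ± 9.77 TPM and Rps27rt at 53.9 ± 3.32 TPM, against 1360 ± 33.3 TPM for Rps27. Rps27l differs from Rps27 at 60 of 252 coding bases, shown in capitals, while the coding sequence of Rps27rt is the same as that of Rps27 in every base.
Rps27 (chr3:90212522-90213651, minus strand, mm10): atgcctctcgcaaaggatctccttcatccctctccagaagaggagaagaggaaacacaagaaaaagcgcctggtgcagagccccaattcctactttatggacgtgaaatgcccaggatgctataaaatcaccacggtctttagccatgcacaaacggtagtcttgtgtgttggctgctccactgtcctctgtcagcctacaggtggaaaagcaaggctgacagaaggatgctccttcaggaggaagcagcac
Rps27l (chr9:66946086-66949516, plus strand, mm10): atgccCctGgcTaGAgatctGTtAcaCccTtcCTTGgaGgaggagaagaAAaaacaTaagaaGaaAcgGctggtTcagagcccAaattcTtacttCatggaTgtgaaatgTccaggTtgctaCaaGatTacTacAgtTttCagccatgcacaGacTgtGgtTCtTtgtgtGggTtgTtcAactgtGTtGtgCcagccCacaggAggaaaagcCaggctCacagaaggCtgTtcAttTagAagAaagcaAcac

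Rps27rt (chr9:114982366-114982739, minus strand) has 296 of its 325 words in Rps27. Within the principal transcripts, its 776 fragments and those of Rps27 can therefore be told apart only by the few bases outside the shared words. Rps27 was counted over 1043 exon bases, of which only the 345 of its principal transcript were searched. Both levels are uncertain. Rps27l shares no word with Rps27, so its level of 528, 507, 509 and 512 TPM in replicates 1 to 4 does not depend on that pair. Rps27l was at 37.8% ± 1.23 of Rps27, or 20.5% ± 0.663 by principal transcript length.

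**Figure D3:**
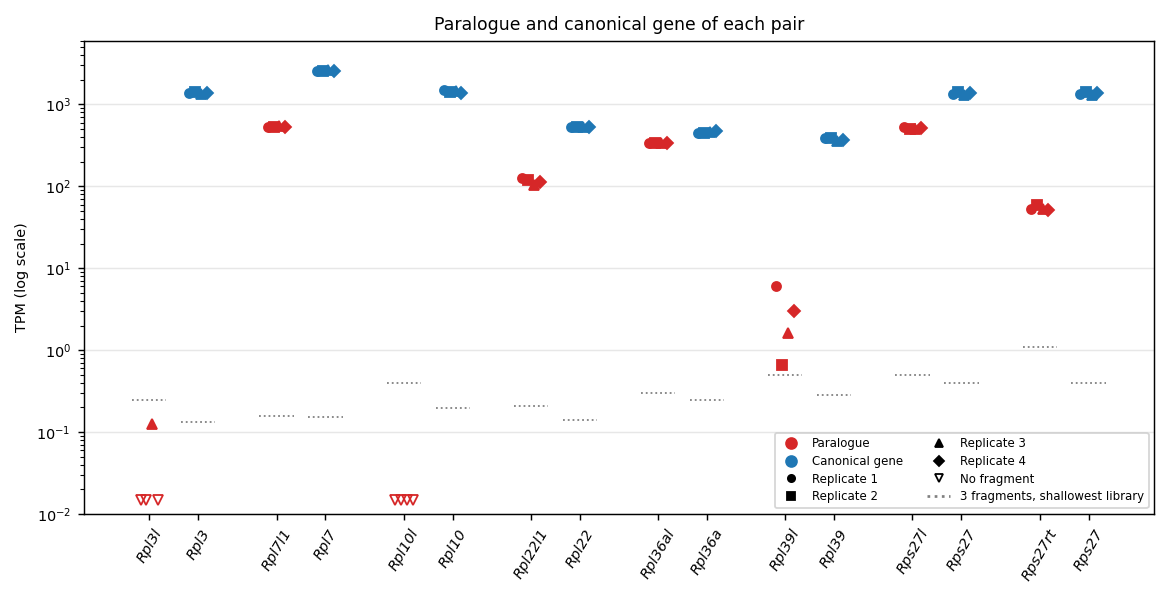
TPM (log scale) of each paralogue (red, left) and its canonical gene (blue, right) in each library, with a dotted line for the level that 3 fragments give in the shallowest library. Every paralogue lies below its canonical gene, Rpl3l and Rpl10l at or near no fragments and Rpl36al closest on this scale.

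Members shared other features that the symbol rule did not use. A small nucleolar RNA (snoRNA) gene, of the class that guides modification of ribosomal RNA, lay inside 30 of the 86 genes on the same strand (34.9%). This was so for 1.89% of expressed protein-coding genes and none of the 78 mitochondrial ribosomal protein genes. There were 58 such snoRNAs, among them 5 in Rpl4 and 4 in Rpl13a. Some exon base lay inside another gene's exon on the same strand in 26 of the 86 genes (30.2%), against 7.77% of expressed protein-coding genes. All of these 26 except Rpl19 and Rpl24 also had a snoRNA gene inside. The overlapping gene was often a snoRNA gene, such as Snora7a in Rpl32, so these features are not separate. Principal transcripts had a median of 774.5 bases, against 1251.5 for mitochondrial ribosomal protein genes and 2809 for expressed protein-coding genes. Members lay on 18 autosomes and X, with 14 on chromosome 7 and 8 each on 9 and 17.

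RefSeq start windows on GRCm38.p6 (the mm10 build) were found for 66 of the 86 genes. A tract of C followed by at least 4 pyrimidines began exactly at the annotated start in 13 of them (19.7%), 12 of the 57 canonical genes and Rps27rt. This was so for 0 of 69 mitochondrial ribosomal protein genes, 2.37% of 7856 expressed protein-coding genes and 2.20% of all 16466 genes with a window. The search covered the transcribed strand only, and annotated starts can be off by some bases. Within 10 bases on either side of the start, a tract was found in 35 of 66 members (53.0%), against 43.5% of mitochondrial ribosomal protein genes and 31.0% of all genes. No match says only that these letters are not in the window. The 8 genes with a C at the start and a run of at least 8 pyrimidines from it show the pattern, each with the 10 bases before the start and the first 20 from it on. Capitals mark the pyrimidine run that covers the start, from its first C on, so a T before that C is in lower case.
Rpl15 (chr14:18270967-18270996, minus strand): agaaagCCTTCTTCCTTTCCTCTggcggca
Rpl35 (chr2:39005112-39005141, minus strand): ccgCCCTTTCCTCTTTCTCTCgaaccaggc
Rps10 (chr17:27635225-27635254, minus strand): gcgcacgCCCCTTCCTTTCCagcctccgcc
Rps18 (chr17:33955646-33955675, minus strand): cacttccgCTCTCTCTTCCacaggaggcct
Rps6 (chr4:86857348-86857377, minus strand): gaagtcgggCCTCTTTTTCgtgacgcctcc
Rpl38 (chr11:114668570-114668599, plus strand): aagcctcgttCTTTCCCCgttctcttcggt
Rpl28 (chr7:4792955-4792984, plus strand): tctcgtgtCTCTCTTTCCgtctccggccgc
Rps15a (chr7:118116128-118116157, minus strand): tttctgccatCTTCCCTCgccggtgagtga

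Among genes with a C at the annotated start, Rpl15 had the longest run from it, 13 pyrimidines, and Rpl35 and Rps10 followed with 11 and 10. Genes with another base at the start could have longer runs. The run of Rpl27a was 20 pyrimidines from its first C, which lay 4 bases before a start at a T. The 8 genes shown lay between 308 TPM (Rps15a) and 1484 TPM (Rpl38). Factors known to act on TOP mRNAs were present, led by Larp1 at 465 TPM, with Rptor, the mTORC1 scaffold, lowest of 8 at 24.4 TPM.

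**Figure D4:**
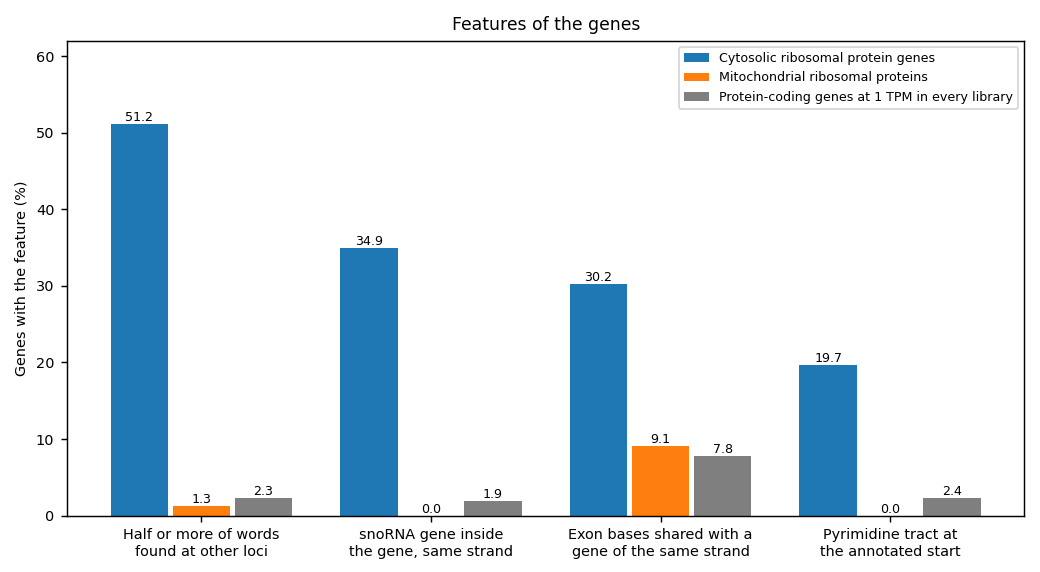
Percent of genes with each of 4 features among the 86 cytosolic ribosomal protein genes (blue), mitochondrial ribosomal protein genes (orange) and protein-coding genes at 1 TPM in every library (grey). The blue bars, 51.2%, 34.9%, 30.2% and 19.7%, are the highest for each feature, and those for the start tract count only genes with a RefSeq window. Most members with shared exon bases are also among those with a snoRNA gene inside.

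Variability between the libraries was tested with edgeR's quasi-likelihood fit over 11847 genes, which asks whether a gene varies more than genes of its abundance. Of the 83 members that passed the filter on low counts, 0 were called at a Benjamini-Hochberg adjusted p under 0.05, against 36 genes or 0.304% of all those tested. At an unadjusted p under 0.05 there were 9 (10.8%), against 5.69% of all genes. DESeq2 size factors and limma-trend also called 0 members. The smallest p was that of Rpl41, which encodes a very short basic protein, at 0.0127 (edgeR, adjusted p = 0.595). Rpl41 was at 2824, 3017, 2930 and 3188 TPM in replicates 1 to 4, lowest in replicate 1 and highest in replicate 4.

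The coefficient of variation (CV) of normalised counts was largest for Rpl24, at 9.94%. Its level was higher in replicates 1 and 2 than in replicates 3 and 4 and the pairs did not overlap, a split that Xist and Ddx3y also showed and whose part in the result was not tested. The adjusted p of Rpl24 in edgeR was 0.690. Rpl22l1 followed at 7.67%, Rps27rt at 6.69%, Rps23 at 6.10%, Rpl41 at 5.77% and Rps29 at 5.35%. Rps23 was highest in replicate 2 at 2339 TPM and lowest in replicate 3 at 2055 TPM, and Rps29 ranged between 955 TPM in replicate 1 and 1072 TPM in replicate 4. The most constant genes were Rpl36al (0.826%), Rpl22 (1.01%), Rpl19 (1.10%) and Rpl7l1 (1.27%). Counting error alone gives a CV of 7.18% for Rps27rt and 1.51% for Rpl36al, above their observed values. The CVs of the other genes named here lay above their counting error. The median CV of the members was 3.48%, against 5.04% for all genes tested and 3.18% for the 5677 genes with a mean of at least 1000 fragments. The edgeR test divides a gene's spread by that typical of its abundance. This ratio had a median of 1.46 over the members, against 0.804 for all genes tested and 0.774 for those 5677. The ratio of the typical member was thus higher than that of genes of its abundance, though none was called. Members share the same libraries and moved together, as given below, so this is only a description.

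The members moved together by small amounts. Relative to each gene's own mean of log2 CPM (counts scaled to library size), the median member was at -0.01, 0.03, -0.03 and 0.01 in replicates 1 to 4. In replicate 2, 66 of the 83 genes were above their own mean, and in replicate 4, 50 were. In replicates 1 and 3, 27 and 25 were. For all genes tested, these shares reached at most 51.1%. Replicate 2 was also the shallowest library, and the part of depth in this shift was not tested. In bulk RNA, fewer cells with high levels and less of these mRNAs per cell cannot be told apart.

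**Figure D5:**
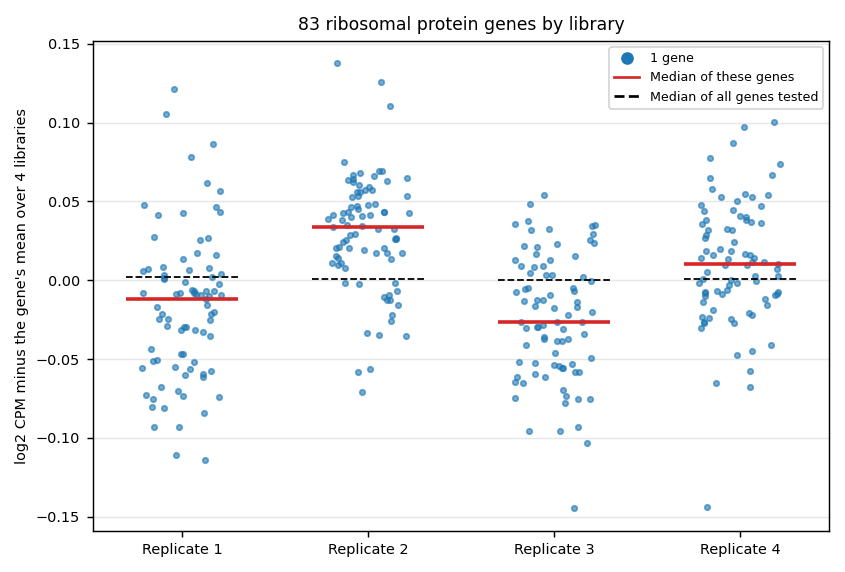
Difference of each of 83 members from its own mean over the 4 libraries (log2 CPM), with the median of members in red and of all genes tested dashed. Most members lie above 0 in replicate 2, where the median is 0.03, and below 0 in replicate 3, where it is -0.03.

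Of the 4 X-linked members, Rps4x was at 3180, 3202, 3206 and 3100 TPM in replicates 1 to 4. Rpl10 ranged between 1389 and 1495 TPM, Rpl36a between 448 and 472 TPM and Rpl39 between 353 and 391 TPM. Rpl10 was highest in replicate 1 and lowest in replicate 4, while Rpl36a was lowest in replicate 1 and highest in replicate 4. None of the 4 was called variable, and Xist in the same libraries differed as given above.

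Genes of other steps of translation, from lists chosen for their roles, were also measured. All 6 elongation factor genes on the list were above 100 TPM, led by Eef1a1, which delivers aminoacyl-tRNA, at 15676 TPM, with Eef1d lowest at 291 TPM. All 9 initiation factor genes were above 100 TPM, led by the helicase Eif4a1 at 1533 TPM, with the cap-binding Eif4e lowest at 133 TPM. Of 11 assembly factors and chaperones of ribosomal proteins, 9 were above 100 TPM in every library, led by the nucleolar protein Npm1 at 5287 TPM, with Pdcd2 lowest at 53.8 TPM. Rack1 was at 1653 TPM, close to the median of the small subunit it binds, and Serbp1, known on idle ribosomes, at 278 TPM. None of the genes on these lists was called variable by edgeR. Eef1a1 came closest, with an adjusted p of 0.0733 in edgeR and 16094, 16601, 14767 and 15242 TPM in replicates 1 to 4.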

How the data were processed

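Fragments over GENCODE vM13 exons were counted by gene with featureCounts 1.4.6-p4, per the file headers, with both ends aligned and strand option 2, and the authors deposited these raw counts. The build is mm10 per the labels. Handling of fragments that match several loci or genes does not appear in the headers, and the program's default leaves both out. The files also give summed exon length per gene, the deposited length used here.

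TPM was computed from counts and length. Symbols and classes came from GENCODE M21, which matched 50376 of 50600 genes with the identifier version ignored. For variability, edgeR 4.0.16 was used under R 4.3.3 (filterByExpr, TMM, intercept-only glmQLFit with a robust prior, upper-tail F, Benjamini-Hochberg) and checked on simulated counts. The spread planted in those counts was larger than that of the members tested, so the check does not cover spreads as small as theirs. Paralogues were compared by an exact sign-flip test. Shared words were planned for the genome and were instead sought in annotated transcripts, as a genome sequence was not used here. The principal transcript was chosen by APPRIS rank, support level, then coding length.

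A floor of 3 fragments corresponds to 0.276 to 0.409 TPM for a gene of 1 kb. Intervals and floors cover counting error only. Alternatives were DESeq2 1.42.0 size factors, limma 3.58.1, other filters, lengths, word sizes and pseudocounts, and each library left out. Members and lists were chosen with earlier results of these data known. Named genes were paralogue pairs, P-stalk, 5S particle, Rps27a, X-linked members, extremes of level, shared words, CV and rank change, and the ends of each list. Genes named beyond these, such as the hosts of most copies or snoRNAs, those with the longest tracts and Rpl13a, were chosen after their values were seen. Some genes the rule names are not reported here.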

Additional observations from a re-analysis of the deposited data

Results flagged for a closer look

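In 4 of the 85 genes with a fragment (4.71%), the highest or lowest library lay farther from its nearest neighbour than Dixon's 95% critical value allows, and chance alone marks about 1 group in 20. Rps24 was at 2788 TPM in replicate 2 and between 2953 and 2986 TPM in the other libraries. Rpl3l was at 0.126 TPM in replicate 3, from 2 fragments, and had no fragment in the other libraries, which is under the floor of 3 fragments. Rpl37 was at 1260 TPM in replicate 1 and between 1381 and 1389 TPM in the other libraries. Rps13 was at 529 TPM in replicate 4 and between 483 and 489 TPM in the other libraries.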

How the results depend on the processing

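No paired comparison of conditions was possible because the 4 libraries form 1 group. Only the paralogue test was paired, by library. With no filter on low counts, edgeR called 1 member, Rpl39l (adjusted p = 0.0101 over 20704 genes). With the filter but without replicate 2, Rpl39l was tested and its adjusted p in edgeR was 0.350. The unfiltered setting was not run with a library left out. No other setting called a member. Over all genes, 36 were called, against 94 with no filter, 17 with a prior without robust estimation and 15 to 37 with a library left out, 15 being without replicate 4. The members' share of TPM, 14.0%, was 17.1% by principal transcript length, 14.3% without mitochondrial and ribosomal RNA genes and 6.46% as fragments. The large subunit median, 1049 TPM, was 1674 by principal length and 1075 without mitochondrial and ribosomal RNA genes. In a comparison added after seeing the data, it was 1091 without Rpl24 and Rpl13a. The small subunit median, 1575 TPM, was 2367 by principal length. Per unshared word the large and small subunit medians were 6772 and 9570. These are not TPM, as only the members' divisors were changed and the sum was not made equal again. The small subunit stayed above the large subunit on both scales. The median of shared words, 51.1%, was 55.7% for words of 30 bases and 35.8% for 100. Start tracts, 13 exactly at the start, numbered 35 within 10 bases, also added later. Apart from the changed divisors, the cause of these changes was not tested. All 8 paralogue differences stayed negative in every setting tried, but each p was the smallest its number of libraries allows, so no call could change. Their size depended on length. Per unshared word Rps27l was at -8.20 (main -1.40), Rpl36al at -2.75 (-0.45) and Rpl7l1 at -4.48 (-2.27), and by principal length at -2.29, -0.86 and -3.48. Depth limits Rpl3l, Rpl10l and Rpl39l.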
